A study of Mus musculus with 6 samples.

Results

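The genes described here are 10 non-collagen markers of cartilage and tendon cells, measured in cultured mouse preosteoblasts, the cells that mature into bone-forming osteoblasts. They were taken by symbol from a fixed list of names and not by their measured values: the transcription factors Sox9, Sox5 and Sox6, the cartilage matrix genes Acan, Hapln1, Comp and Matn2, and the tendon genes Scx, Mkx and Tnmd. All 10 were found among the 17001 rows of the expression table. RNA came from preosteoblasts isolated from the calvaria, the flat bones of the skull roof, of 3-day-old mice and grown in α-MEM with 10% serum. There were 3 control libraries of the genotype NELL2 fx/fx, in which both copies of Nell2 are floxed but intact, and 3 cKO libraries of the genotype Col1-cre; NELL2 fx/fx, in which Cre is driven by a fragment of the mouse Col1a1 promoter. Both groups therefore carried the floxed alleles, and the controls differed by lacking Cre. By this design recombination can occur only in cells in which that promoter fragment is active, and it persists in them and their descendants. Nothing in the labels states how many pups each culture was made from or whether the replicates were separate cultures, so the p-values measure only the spread between these libraries.

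Cartilage, tendon and bone share progenitors in the embryonic skeleton. SOX9 starts the cartilage programme, and SOX5 and SOX6, which belong to a separate branch of the SOX family, act with it on the genes of the cartilage matrix. In that matrix aggrecan (Acan) is tied to long chains of hyaluronan by link protein (Hapln1), while the pentameric thrombospondin COMP and the matrilins connect collagen fibrils to other matrix molecules. Scleraxis (Scx) and Mohawk (Mkx) are transcription factors of tendon and ligament cells, and tenomodulin (Tnmd) is a membrane protein of mature tendon cells. The calvaria forms by direct ossification of mesenchyme, without a cartilage template over most of its area.

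Levels are in FPKM, the number of sequenced fragments corrected for transcript length and for library size, so that levels of different genes can be compared. Read numbers are not part of the table, so the depth is unknown and counting error cannot be computed. The FPKM of a library summed to between 573307 and 606428. Differences are on the scale log2(FPKM + 1), cKO minus control, from limma's moderated test over the 11590 rows that reached 1 FPKM or more in 3 libraries or more; all 10 genes passed this filter. This scale understates the differences of genes with low values. Nell2, the targeted gene, was at 3.17, 2.59 and 1.88 FPKM in control replicates 1, 2 and 3 and at 5.64, 1.61 and 5.74 in cKO replicates 1, 2 and 3. It was thus not lower in the libraries labelled cKO (log2 fold change 0.48, SE 0.37, adjusted p = 0.591, limma), and every direction below follows the labels only. The fold change was 0.93 without cKO replicate 2, 0.25 without cKO replicate 3 and 0.26 without cKO replicate 1. The paper reports deletion of NELL2 in calvarial preosteoblasts of such mice, checked with qRT-PCR and western blotting. An FPKM value for the whole gene does not show whether the floxed segment was lost. The osteoblast collagen gene Col1a1 was at a mean of 8273 FPKM over the 6 libraries and the osteoblast matrix gene Spp1 at 1708, and the smallest correlation between any pair of libraries across tested genes was 0.982. Markers of epithelial cells and some markers of osteoblasts differed with the labels. The 6 epithelial markers summed to between 0.46 and 13.4 FPKM in control libraries and between 18.2 and 42.7 in libraries labelled cKO. The 3 that passed the filter, Krt18, Krt8 and Epcam, all had higher means in libraries labelled cKO. Each had an unadjusted p under 0.05, called in that direction for 5.37% of all rows, and an adjusted p of 0.312 (limma). Of the 9 tested osteoblast markers, 8 had a negative log2 fold change, and 5 of these had an unadjusted p under 0.05 (7.76% of all rows). All 5 had an adjusted p of 0.312 in limma, among them Ibsp (-1.27), Bglap (-1.15), Ifitm5 (-1.05) and Sp7 (-0.48) as log2 fold changes. Col1a1 (-0.01, SE 0.06) and Spp1 (0.12, SE 0.17) were not among them. The 11 listed osteoblast markers summed to between 9502 and 10494 FPKM in control libraries and between 9988 and 10173 in libraries labelled cKO. The 4 Y-linked markers summed to 0.01, 0.29 and 54.7 FPKM in control replicates 1, 2 and 3 and to 52.8, 0.01 and 49.6 in the libraries labelled cKO, so 1 control and 2 cKO libraries expressed them. The 6 endothelial markers summed to no more than 4.48 in any library, and 0 of the listed markers of any cell type was at 0 in all 6 libraries. The part of these cells in the results below was not tested, and in bulk RNA fewer cells of a type and less RNA per cell cannot be told apart.

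Stretches of promoter DNA from 3 genes are shown to place the genes that follow. They lie before the start sites of Tnmd, the most abundant of the 10 genes, and of Acan and Sox6, whose mean levels differed between the groups in opposite directions. RefSeq start sites on GRCm38.p6 were found for 5 of the 10 genes, and each stretch covers up to 250 bases before the first listed start, cut back where it would enter the GENCODE span of the gene. The Tnmd stretch is chrX:133850758-133850979 on the plus strand, the Acan stretch chr7:79052976-79053225 on the plus strand, and the Sox6 stretch chr7:116038797-116038994 on the minus strand. Capitals mark CANNTG, the E-box that basic helix-loop-helix factors such as Scleraxis bind, or ACAAT, the core of the sequence that SOX proteins bind, searched on both strands; matches to the 2 patterns do not overlap in these stretches.
Tnmd: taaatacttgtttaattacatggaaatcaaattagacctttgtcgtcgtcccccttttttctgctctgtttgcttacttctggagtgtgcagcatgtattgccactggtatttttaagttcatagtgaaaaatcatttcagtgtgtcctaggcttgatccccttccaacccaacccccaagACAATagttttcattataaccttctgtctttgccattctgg
Acan: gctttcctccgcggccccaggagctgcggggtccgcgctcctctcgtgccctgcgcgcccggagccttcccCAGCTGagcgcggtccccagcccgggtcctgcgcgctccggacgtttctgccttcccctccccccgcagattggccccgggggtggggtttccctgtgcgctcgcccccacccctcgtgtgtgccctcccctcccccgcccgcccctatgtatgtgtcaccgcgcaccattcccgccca
Sox6: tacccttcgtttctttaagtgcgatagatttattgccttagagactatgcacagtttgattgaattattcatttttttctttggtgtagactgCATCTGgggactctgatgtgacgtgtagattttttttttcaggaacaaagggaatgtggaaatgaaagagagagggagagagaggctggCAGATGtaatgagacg

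The stretches differ in base composition: 74.4% of the Acan bases were G or C, against 39.2% for Tnmd and 39.4% for Sox6. Distances are to the RefSeq start, which lies inside the GENCODE span of Tnmd and of Sox6 and before that of Acan. The Tnmd stretch held 1 ACAAT match, 69 bases before the start, and no E-box. The Acan stretch held 1 E-box, 179 bases before the start, and no ACAAT, and the Sox6 stretch held 2 E-boxes, 157 and 68 bases before the start, and no ACAAT. Among all 32851 RefSeq promoter windows of 250 bases, 66.2% held an E-box and 27.7% held ACAAT, so such matches are common. RefSeq lists 6 start sites for Sox6, and the expression table gives 1 value per gene and does not say which start was used.

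In these preosteoblasts the tendon membrane gene Tnmd and the matrilin gene Matn2 were the most abundant of the 10 genes, and the SOX factors Sox5 and Sox6 the least abundant. The mean FPKM over the 6 libraries was 168 for Tnmd, above 97.2% of all rows, and 61.5 for Matn2, above 92.2%. Scx followed at 29.9, Comp at 16.8 and Sox9 at 10.96. Mkx (3.77), Acan (3.38), Hapln1 (2.66), Sox6 (1.97) and Sox5 (1.15) were below the middle of the table, with Sox5 above 33.2% of rows. The ranges over the 6 libraries of Tnmd, Matn2 and Scx did not touch each other or that of the next gene. Comp and Sox9 overlapped, and so did the ranges of each neighbour in the order Mkx, Acan, Hapln1 and Sox6. Within each library, however, Hapln1 was above Sox6 and Sox6 above Sox5.

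**Figure D1:**
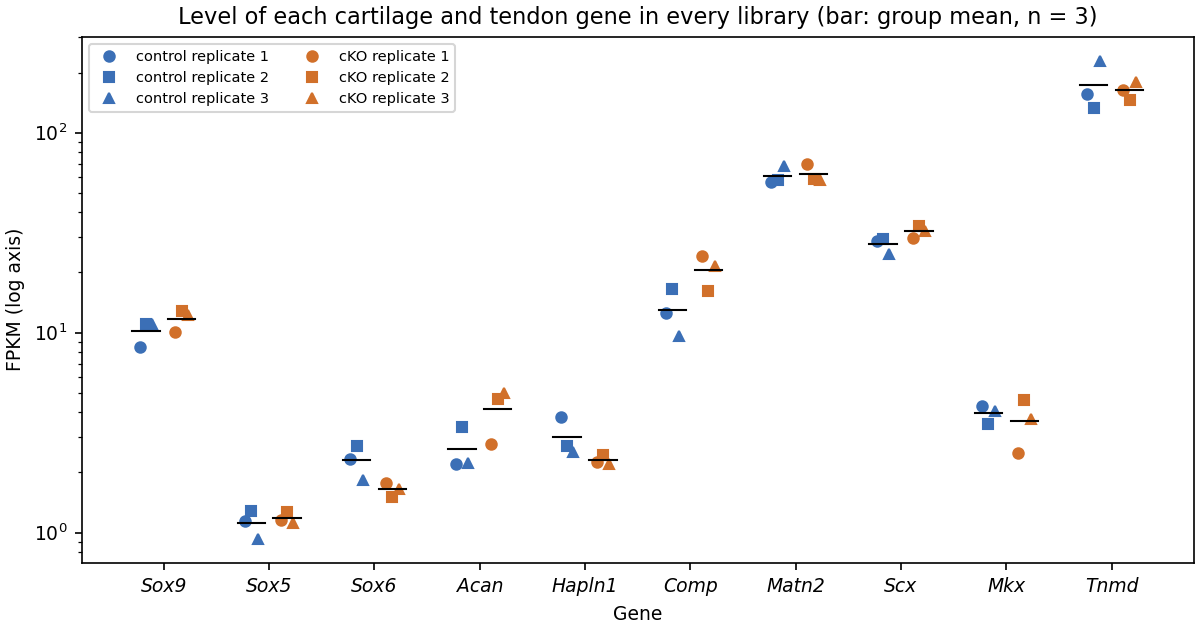
FPKM of each gene on a log axis in the 3 control libraries (blue) and the 3 libraries labelled cKO (orange); symbols give the replicate number and black bars the group means. Tnmd lies at 133.57 FPKM or higher in every library, while Sox5 lies near 1 throughout.

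Between the groups, 0 of the 10 genes had an adjusted p under 0.05 in limma's moderated test, and neither had any of the 11590 rows (0%). At an unadjusted p under 0.05 there were 4 of 10 genes, where 13.1% of all tested rows were called. Comp, Acan and Scx were the 3 with higher means in the libraries labelled cKO, a direction called for 5.37% of all rows, and Sox6 was the 1 with a lower mean, a direction called for 7.76%. Under median-of-ratios scaling the split over all rows was 789 higher of 1485 called, in place of 622 of 1521. The median log2 fold change of the 10 genes was 0.04, close to the -0.02 of all tested rows. With 1 library left out, the number at an unadjusted p under 0.05 was 1 without control replicate 1, 2 without control replicate 3, 1 without cKO replicate 2, 0 without cKO replicate 3 and 3 without either of the other libraries. It was 2 with a pseudocount of 0.1. The values of control and cKO libraries did not overlap for 3 of the 10 genes, against 18.3% of all tested rows: Scx was higher in all 3 libraries labelled cKO (6.51% of rows), and Sox6 and Hapln1 were lower in all 3 (11.8% of rows).

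**Figure D2:**
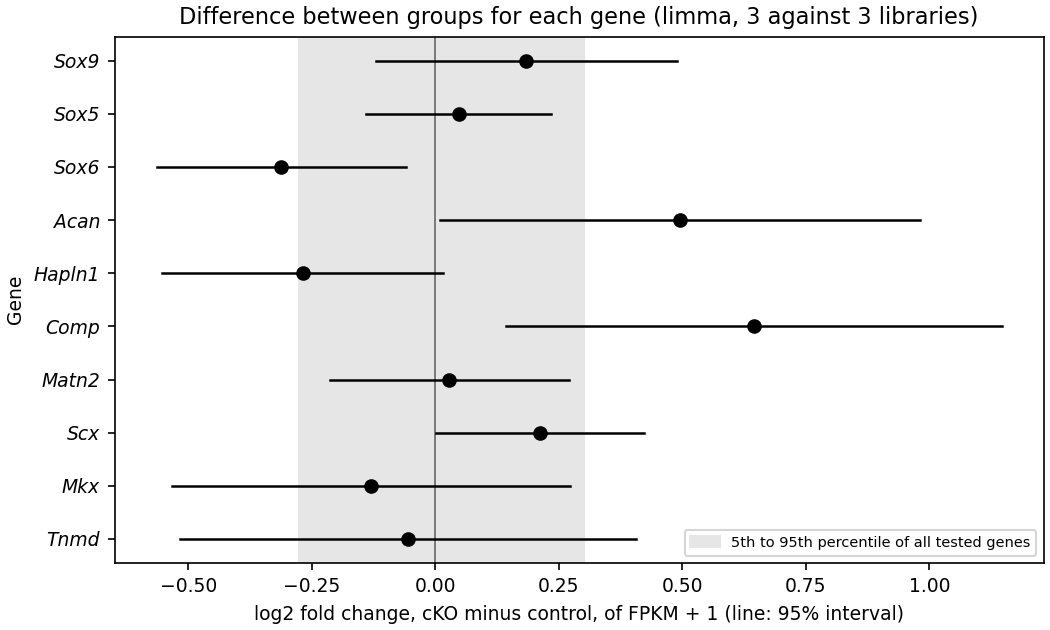
Difference between libraries labelled cKO and control libraries on the log2(FPKM + 1) scale for each gene; points are limma estimates and lines their 95% intervals, and the grey band runs from the 5th to the 95th percentile of all tested genes (-0.28 to 0.30). Comp and Acan lie to the right of the band and Sox6 just to its left, with wide intervals.

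Among the transcription factors of cartilage, the values of Sox6 did not overlap between the groups, whereas those of Sox9 and Sox5 did. Sox9, on chromosome 11 of GRCm38 from 112782224 to 112787760, was at 8.48, 11.11 and 11.02 FPKM in control replicates 1, 2 and 3. It was at 10.05, 12.89 and 12.2 in cKO replicates 1, 2 and 3. The highest values were in cKO replicates 2 and 3 and the lowest in control replicate 1, and the groups overlapped. The means were 10.2 ± 1.49 (SD, n = 3) and 11.7 ± 1.48 (SD, n = 3), a log2 fold change of 0.18 (SE 0.13, 95% interval -0.12 to 0.49, adjusted p = 0.555). The interval includes 0. The fold change was 0.069 without control replicate 1 and 0.12 without cKO replicate 2, and with the replicate block the unadjusted p of limma was 0.0455.

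Sox5, on chromosome 6 from 143828425 to 144781977, was at 1.14, 1.28 and 0.93 FPKM in control libraries and at 1.16, 1.27 and 1.12 in libraries labelled cKO. The groups overlapped almost completely, with a log2 fold change of 0.05 (SE 0.08, 95% interval -0.14 to 0.23, adjusted p = 0.809). Exons of an antisense gene, Sox5os1, overlap those of Sox5 in GENCODE release M21, and the way reads were assigned to strands is not given in the sources used here.

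Sox6, on chromosome 7 from 115470872 to 116038796, was at 2.34, 2.71 and 1.84 FPKM in control libraries and at 1.78, 1.5 and 1.65 in libraries labelled cKO. Every library labelled cKO was below every control, although control replicate 3 and cKO replicate 1 were close, at 1.84 against 1.78. The log2 fold change was -0.31 (SE 0.11, 95% interval -0.56 to -0.06, unadjusted p = 0.0224 and adjusted p = 0.321 in limma). It was negative in the main setting and in all 17 alternatives, between -0.45 and -0.22, but the unadjusted p was above 0.05 with the Y-linked covariate and without control replicate 1 or 2 or cKO replicate 2 or 3.

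Because SOX5 and SOX6 are close relatives that act together with SOX9, their levels were also compared within each library. The ratio of Sox5 to Sox6 was 0.487, 0.472 and 0.505 in control libraries and 0.652, 0.847 and 0.679 in libraries labelled cKO. The control ratios lay close together, with a mean of 0.488 ± 0.017 (SD, n = 3). All 3 cKO ratios were above them, with a mean of 0.726 ± 0.106 (SD, n = 3). The two-sided exact permutation test gave p = 0.1, the smallest value that 3 against 3 libraries allow, and an adjusted p of 0.333 over the 10 ratios computed. The ratio of Sox9 to Sox6 overlapped between the groups, from 3.62 to 5.99 in controls and from 5.65 to 8.59 in libraries labelled cKO (exact permutation test, p = 0.2, adjusted p = 0.333). All 10 pairs of genes, here and below, were chosen after the values had been seen, so the p-values of ratios are descriptive only.

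**Figure D3:**
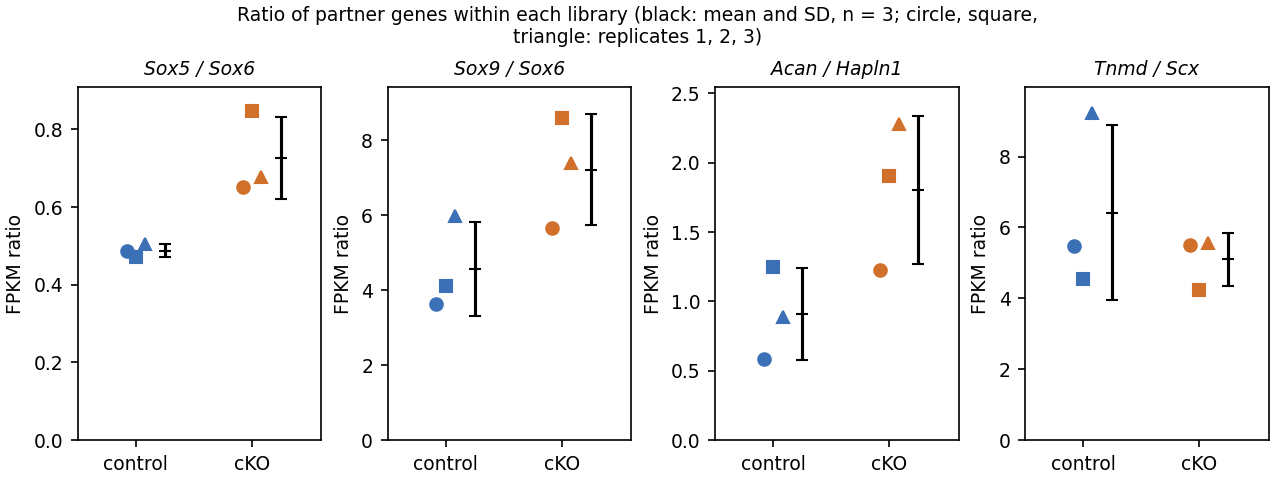
Ratio of FPKM values of partner genes within each library for 4 pairs, with the group mean and SD (n = 3) in black beside the libraries. The control ratios of Sox5 to Sox6 lie between 0.472 and 0.505 and the cKO ratios between 0.652 and 0.847; in the other 3 pairs the groups overlap.

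The cartilage matrix genes did not share 1 direction. Acan and Comp had higher means in the libraries labelled cKO, Hapln1 a lower mean, and Matn2 was level. Acan, the core protein of aggrecan, lies on chromosome 7 from 79053483 to 79115099. Its FPKM was 2.21, 3.39 and 2.24 in control libraries and 2.76, 4.66 and 5.01 in libraries labelled cKO. Control replicate 2 was above cKO replicate 1, so the groups overlapped, and cKO replicates 2 and 3 were the highest of the 6 libraries. The means were 2.61 ± 0.67 (SD, n = 3) and 4.14 ± 1.21 (SD, n = 3), with a log2 fold change of 0.50 (SE 0.20, 95% interval 0.01 to 0.98, unadjusted p = 0.0466 and adjusted p = 0.376 in limma). With 1 library left out the fold change ran from 0.37 to 0.71, and the unadjusted p was above 0.05 without control replicate 1 or 3 or cKO replicate 2 or 3, with a pseudocount of 0.1 and with no filter on low values.

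Hapln1, the link protein, lies on chromosome 13 from 89539796 to 89611652. Its FPKM was 3.79, 2.72 and 2.52 in control libraries and 2.25, 2.45 and 2.2 in libraries labelled cKO. All 3 cKO values were below all 3 controls, but control replicate 3 and cKO replicate 2 were close, and control replicate 1 stood above the other 5 libraries. The log2 fold change was -0.27 (SE 0.12, 95% interval -0.55 to 0.02, unadjusted p = 0.0604 and adjusted p = 0.395 in limma), and it was -0.13 without control replicate 1. The ratio of Acan to Hapln1 was 0.583, 1.25 and 0.889 in control libraries and 1.23, 1.9 and 2.28 in libraries labelled cKO. Only the highest control and the lowest cKO library crossed, and the exact permutation test gave p = 0.2 (adjusted p = 0.333). This pair, too, was chosen after the values had been seen.

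Comp, on chromosome 8 from 70373558 to 70382066, had the largest difference of the 10 genes. Its FPKM was 12.61, 16.57 and 9.63 in control libraries and 24.23, 16.07 and 21.57 in libraries labelled cKO. Here cKO replicates 1 and 3 stood above the other 4 libraries, and cKO replicate 2 was level with control replicate 2. The means were 12.9 ± 3.48 (SD, n = 3) and 20.6 ± 4.16 (SD, n = 3), 1.59 times as high in the libraries labelled cKO, with a log2 fold change of 0.65 (SE 0.21, 95% interval 0.14 to 1.15, unadjusted p = 0.0188 and adjusted p = 0.315 in limma). The unadjusted p was above 0.05 without control replicate 3, cKO replicate 1 or cKO replicate 3. Acan and Comp were thus not highest in the same libraries: Comp was highest in cKO replicate 1, where Acan was lower than in control replicate 2. The ratio of Comp to Acan was 8.78 in cKO replicate 1 and between 3.45 and 5.71 in the other 5 libraries.

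Matn2, a matrilin found in many connective tissues and not limited to cartilage, lies on chromosome 15 from 34306677 to 34436273. Its FPKM was 56.9, 57.77 and 67.93 in control libraries and 69.34, 58.69 and 58.26 in libraries labelled cKO. One library of each group was raised and the other 4 were within 2 FPKM of each other. The log2 fold change was 0.03 (SE 0.10, 95% interval -0.21 to 0.27, adjusted p = 0.923 in limma), and it changed sign when single libraries were left out. An opposite-strand gene, 9430069I07Rik, shares exonic bases with Matn2 in GENCODE release M21, and reads of the pair cannot be told apart if strand was not used.

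Of the tendon genes, Tnmd and Scx were abundant and Mkx was low, and Scx was the 1 whose values did not overlap between the groups. Scx, the basic helix-loop-helix factor of tendon progenitors, lies on chromosome 15 from 76457452 to 76459458, inside the span of the opposite-strand gene Bop1, which was itself at a mean of 23.0 FPKM but shares no exonic bases with Scx. The FPKM of Scx was 28.65, 29.33 and 24.87 in control libraries and 29.66, 34.34 and 32.31 in libraries labelled cKO. The groups did not overlap, but cKO replicate 1 was only slightly above control replicate 2. The means were 27.6 ± 2.4 (SD, n = 3) and 32.1 ± 2.35 (SD, n = 3), 1.16 times as high in the libraries labelled cKO, with a log2 fold change of 0.21 (SE 0.09, 95% interval 0.00 to 0.42, unadjusted p = 0.0494 and adjusted p = 0.38 in limma). The unadjusted p of limma was above 0.05 with either other pseudocount, with the filter on mean FPKM, after scaling to TPM, with the replicate block (0.0607), and without control replicate 1 or 3 or cKO replicate 2 or 3 (up to 0.155). The fold change was 0.14 without control replicate 3.

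Mkx, a homeobox factor of tendon cells, was at 4.3, 3.51 and 4.04 FPKM in control libraries and at 2.49, 4.62 and 3.68 in libraries labelled cKO. Both the lowest and the highest value belonged to libraries labelled cKO, and the log2 fold change was -0.13 (SE 0.17, 95% interval -0.53 to 0.27, adjusted p = 0.755 in limma). Without cKO replicate 1 it was 0.05. Control libraries had a mean of 3.95 ± 0.403 (SD, n = 3), and those under the cKO label 3.6 ± 1.07 (SD, n = 3).

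Tnmd, on the X chromosome from 133850980 to 133865577, was at 156.91, 133.57 and 229.21 FPKM in control libraries and at 163.27, 145.64 and 179.91 in libraries labelled cKO. Control replicate 3 was the highest and control replicate 2 the lowest of the 6 libraries, so the control range enclosed all cKO values. The log2 fold change was -0.06 (SE 0.19, 95% interval -0.52 to 0.41, adjusted p = 0.92 in limma), and it was 0.16 without control replicate 3. In control replicate 3 the 7 muscle markers also summed to more than in any other library, 66.6 FPKM against 35.6 to 57.4, with Acta1, Tnnt3 and Des the highest by mean over the 6 libraries, and the 8 macrophage markers summed to 96.5 against 36.5 to 78.3, with Lyz2, Cd68 and C1qa the highest by mean. The part of these cells in the Tnmd value was not tested. The ratio of Tnmd to Scx was 9.22 in control replicate 3 and between 4.24 and 5.57 in the other 5 libraries, so the pair did not keep 1 proportion.

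**Figure D4:**
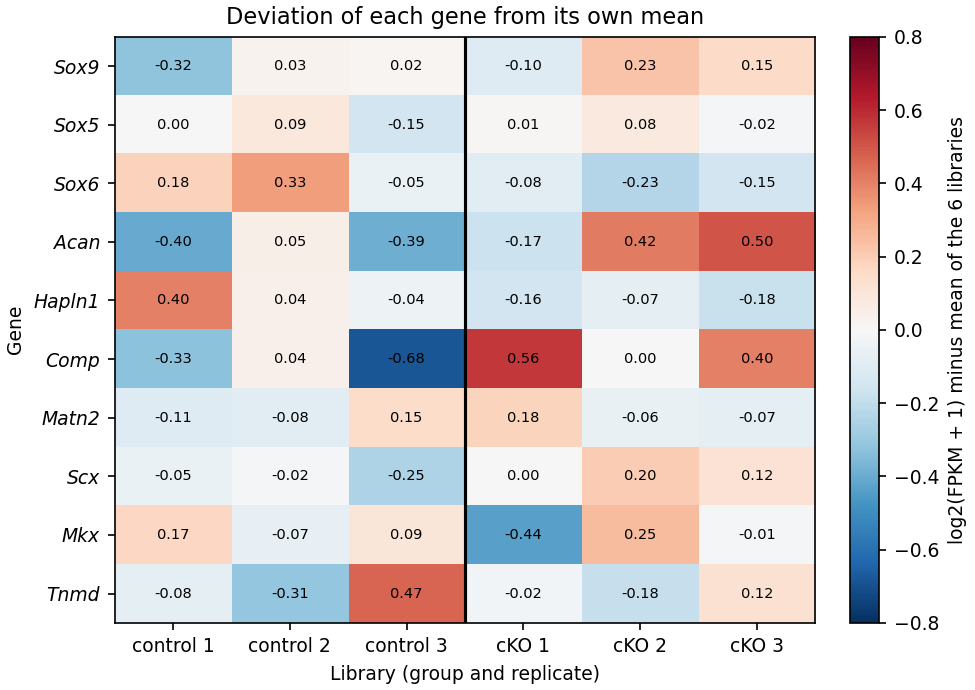
Deviation of log2(FPKM + 1) from the mean of the 6 libraries for each gene (rows) in each library (columns), with control libraries left of the black line. Comp is at -0.68 in control replicate 3 and 0.56 in cKO replicate 1, Tnmd at 0.47 in control replicate 3, and Mkx at -0.44 in cKO replicate 1.

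Read across libraries, no single library was high for all these genes. The highest library was control replicate 1 for 1 gene, control replicate 2 for 2, control replicate 3 for 1, cKO replicate 1 for 2, cKO replicate 2 for 3 and cKO replicate 3 for 1. Control replicates 1 and 3 were each lowest for 3 genes and the other 4 libraries for 1 gene each. The summed FPKM of the 10 genes, which Tnmd dominates, ranged from 262.0 to 354 in control libraries and from 282 to 318 in libraries labelled cKO. The 2 ranges overlapped.

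Genes of the same families were measured to show which relatives these cells use. The 23 relatives included 15 that passed the filter, of which 3 had an unadjusted p under 0.05, all higher in the libraries labelled cKO (background 5.37% of rows). Sox10, a relative of SOX9 that marks neural crest and glial cells, was at 0.47, 0.51 and 1.28 FPKM in control libraries and at 1.32, 2.25 and 2.05 in libraries labelled cKO. The groups did not overlap, and the log2 fold change was 0.73 (SE 0.20, adjusted p = 0.312 in limma). The number at an unadjusted p under 0.05 was 1 where every library had to reach 1 FPKM. Beside Sox10, the glial markers S100b and Gfap were at means of 2.57 and 1.64 FPKM over the 6 libraries. Both had slightly lower means under the cKO label, but Gfap was under the filter and not tested. Its values were 0.15, 4.42 and 0.38 FPKM in control libraries and 0.36, 0.51 and 3.99 in libraries labelled cKO. Of the 6 listed glial and neural crest markers 2 were tested, 1 with a positive and 1 with a negative log2 fold change. Foxd3 and Erbb3, of the same marker list, were also under the filter and not tested (named after their values were seen). Foxd3 was at 0.3, 0.52 and 0.7 FPKM in control libraries and at 0.82, 1.24 and 1.36 in libraries labelled cKO, without overlap. Erbb3 was at 0.37, 0.39 and 0.74 against 0.68, 1.07 and 1.07, with overlap. The 6 glial and neural crest markers together summed to between 4.33 and 9.06 FPKM in control libraries and between 5.4 and 10.8 in libraries labelled cKO. Gfap made up much of the highest sums, at 4.42 in control replicate 2 and 3.99 in cKO replicate 3. The part of these markers in the Sox10 value was not tested. Sox13, the third member of the branch that holds Sox5 and Sox6, had a log2 fold change of 0.25 (SE 0.07, adjusted p = 0.312) at a mean of 0.922 FPKM. Sox4 had one of 0.21 (SE 0.08, adjusted p = 0.367) at a mean of 29.8 FPKM.

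Several of the 10 genes had a more abundant relative in these cells. Versican (Vcan), the hyaluronan-binding proteoglycan of soft connective tissue, was at a mean of 29.2 FPKM, and its ratio to Acan had a mean of 11.8 ± 2.59 (SD, n = 3) in controls against 7.58 ± 3.57 (SD, n = 3) under the cKO label (exact permutation test, p = 0.2, adjusted p = 0.333). Vcan itself had a log2 fold change of -0.06 (SE 0.11, adjusted p = 0.836). Thbs1, a thrombospondin of the same family as COMP, was at a mean of 976 FPKM with a log2 fold change of -0.43 (SE 0.23, adjusted p = 0.465), and Thbs3 at 24.1. The ratio of Thbs1 to Comp was 102.6, 56.4 and 114 in control libraries and 41.2, 35.2 and 44.7 in libraries labelled cKO. The groups did not overlap (exact permutation test, p = 0.1, adjusted p = 0.333). This pair and that of Vcan and Acan were chosen after the values had been seen. No share of non-overlapping ratios over all genes was computed.

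Of the other matrilins, Matn4 was at a mean of 43.6 FPKM and Matn3 at 1.17, while Matn1, the matrilin of mature cartilage, had a value above 0 in cKO replicate 2 alone, where it was 0.03 FPKM (named after its values were seen). Hapln4 was at 1.29 FPKM. Twist1, a basic helix-loop-helix factor of calvarial mesenchyme, was at 76.0 FPKM and Twist2 at 9.08, against 29.9 for Scx. The Iroquois factors Irx3 and Irx5, whose homeobox is of the same class as that of Mkx, were at 18.3 and 8.91. Itm2a, a membrane gene that carries the same kind of extracellular domain as Tnmd, was at 1058 FPKM and level between the groups (log2 fold change 0.01, SE 0.08, adjusted p = 0.957). Sox12 was at 7.48 FPKM.

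Most collagens and other matrix genes of cartilage had higher means in the libraries labelled cKO, but few passed even an unadjusted threshold. Of 17 listed genes 11 passed the filter, and 10 of the 11 had a positive log2 fold change, as had 5128 of all 11590 rows. The median was 0.33 against -0.02 for all rows. The direction was not shared by all libraries labelled cKO. In cKO replicate 1, Col11a1 (123.61 FPKM), Col9a3 (19.02) and Mia (4.22) were at their lowest of the 6 libraries. Col9a1 (13.65) and Prg4 (11.94) were above all controls there. Col9a3, Mia and Prg4 were named after their values were seen. At an unadjusted p under 0.05 there were 2 of 11, where 13.1% of all rows were called. Both were collagen IX genes with higher means under the cKO label, a direction called for 5.37% of all rows. Col9a1 was at 13.37, 9.68 and 12.74 FPKM in control libraries and at 13.65, 19.29 and 17.19 in libraries labelled cKO, without overlap (log2 fold change 0.45, SE 0.16, adjusted p = 0.321). Col9a2 ranged from 2.8 to 4.55 in controls and from 4.02 to 6.38 in libraries labelled cKO (0.47, SE 0.19, adjusted p = 0.363). The count was 7 without cKO replicate 1, 1 without control replicate 2, 1 without cKO replicate 2 and 0 without cKO replicate 3. The most abundant genes of the list did not separate the groups. Col11a1 was at a mean of 140 FPKM with a log2 fold change of 0.05 (SE 0.11), and Col2a1, the collagen of hyaline cartilage, was at 109 with 0.22 (SE 0.25). Epyc, a small leucine-rich proteoglycan, was at 33.8 with -0.30 (SE 0.21). Col10a1, the collagen of hypertrophic cartilage, was at 0.47 FPKM or less in every library (named after its values were seen).

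Regulators of chondrocytes showed no common direction. Of 14 listed genes 13 were in the table and 9 passed the filter, with a median log2 fold change of -0.05. Wwp2, a ubiquitin ligase whose gene hosts a cartilage microRNA, had a log2 fold change of 0.20 (SE 0.07, adjusted p = 0.325). Pth1r, the receptor for parathyroid hormone and its related peptide, had one of -0.24 (SE 0.10, adjusted p = 0.38) at a mean of 61.9 FPKM. These were the 2 of 9 at an unadjusted p under 0.05 (13.1% of all rows), and the count was 0 without control replicate 1 or cKO replicate 3, 1 without cKO replicate 1 or 2, and 5 with the replicate block. Foxc1, a factor of skull mesenchyme, was at a mean of 11.6 FPKM with a log2 fold change of -0.05 (SE 0.08).

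Tendon regulators and matrix genes were abundant, and differences of both signs were found among them. Of 19 listed genes 18 passed the filter, and 9 had an unadjusted p under 0.05, 5 with higher and 4 with lower means under the cKO label, against 5.37% and 7.76% of all rows; 0 had an adjusted p under 0.05. The count was 4 without control replicate 1 and 6 or 7 without any other library. Thbs4, a thrombospondin of tendon, was at 16.84, 37.13 and 31.05 FPKM in control libraries and at 41.35, 37.74 and 68.13 in libraries labelled cKO (log2 fold change 0.79, SE 0.33, adjusted p = 0.374). The groups did not overlap, but control replicate 2 and cKO replicate 2 were nearly equal. Lox, which crosslinks collagen, had a log2 fold change of 0.29 (SE 0.08, adjusted p = 0.312), and Bgn, the proteoglycan biglycan and the most abundant gene of the list at 2387 FPKM, one of 0.28 (SE 0.09, adjusted p = 0.312). On the other side, Dcn, the related proteoglycan decorin, had -0.34 (SE 0.13, adjusted p = 0.342), Kera, a keratan sulphate proteoglycan, -0.34 (SE 0.10, adjusted p = 0.312), and Thbs2 -0.28 (SE 0.08, adjusted p = 0.312). Biglycan and decorin thus lay on opposite sides of 0.

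The machinery that builds the sugar chains of aggrecan was close to level. Of 20 listed genes 18 passed the filter, with a median log2 fold change of -0.02 and 2 of 18 at an unadjusted p under 0.05 (13.1% of all rows). Chst12, a chondroitin sulphotransferase, had -0.28 (SE 0.10, adjusted p = 0.326), and Chsy3, a chondroitin synthase, 0.19 (SE 0.07, adjusted p = 0.361). The count was 0 without control replicate 1 or cKO replicate 2, 1 without control replicate 2 or cKO replicate 3, and 4 without cKO replicate 1. The most abundant were Ugdh, which makes the precursor UDP-glucuronic acid, at 64.4 FPKM, Chpf2 at 51.8 and Chpf at 50.4.

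Genes for hyaluronan, the chain to which aggrecan and link protein bind, and for aggrecan cleavage included 12 tested of 15 listed. Of these, 4 had an unadjusted p under 0.05, 3 with lower and 1 with higher means under the cKO label, where 7.76% and 5.37% of all rows were called. Cemip, which degrades hyaluronan, was at 70.83, 74.48 and 68.25 FPKM in control libraries and at 65.27, 40.21 and 37.35 in libraries labelled cKO (log2 fold change -0.61, SE 0.20, adjusted p = 0.312). All 3 cKO values were below the controls, and cKO replicates 2 and 3 were far lower than cKO replicate 1. The hyaluronan receptor Cd44 had -0.27 (SE 0.09, adjusted p = 0.321) and the hyaluronidase Hyal2 -0.22 (SE 0.08, adjusted p = 0.321). Adamts15, a protease that can cleave aggrecan, had 0.55 (SE 0.18, adjusted p = 0.315) at a mean of 1.33 FPKM, and the protease inhibitor Timp3 was at 72.7 FPKM with 0.20 (SE 0.25). The count was 2 without control replicate 1 or with the Y-linked covariate, and 1 without control replicate 2, cKO replicate 2 or cKO replicate 3.

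**Figure D5:**
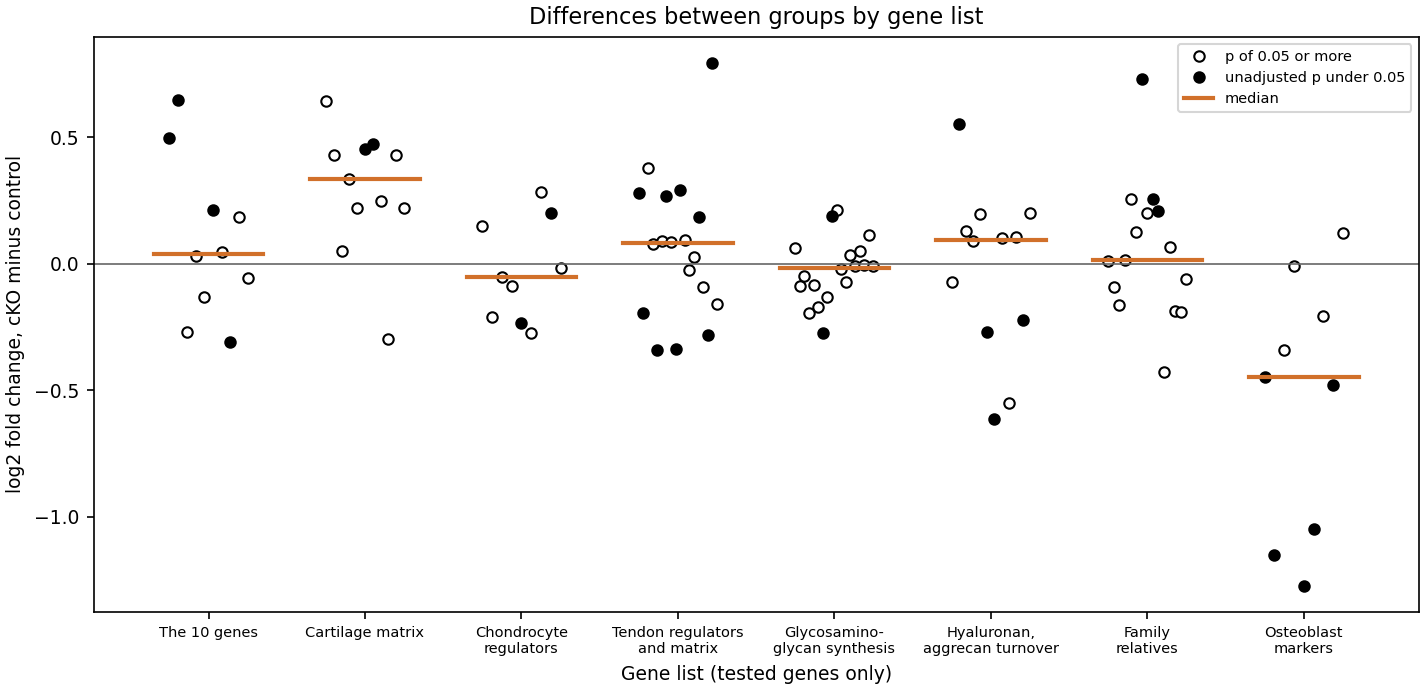
log2 fold change (cKO minus control) of each tested gene in the 10 genes and in 7 related lists; filled points have an unadjusted p under 0.05 and orange bars mark list medians. The cartilage matrix list has a median of 0.33 with 10 of 11 genes above 0, the osteoblast markers a median of -0.45, and the 10 genes a median of 0.04.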

How the data were processed

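The authors aligned 150 bp paired-end reads of polyA RNA with HISAT2 (GRCm38 per the labels) and deposited FPKM values rounded to 2 decimals, 1 per gene symbol and library, in a file called raw counts. The program that computed FPKM, the annotation release and the use of strand are not given in the sources used here; DESeq normalization, named in the methods, is not carried by FPKM. All 6 sample columns were used.

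log2(FPKM + 1) was fitted with the moderated linear model of limma 3.58.1 (R 4.3.3), with p-values adjusted by Benjamini-Hochberg. The fit took the 11590 of 17001 rows that reached 1 FPKM or more in 3 libraries or more; unadjusted and adjusted p-values are two-sided and over all these rows. The fit was tested on simulated data. Ratios were compared with exact permutation tests. The 10 pairs were chosen with the values seen, so these p-values are descriptive only. The genes, lists and tests were chosen with earlier results of these data known. Genes named outside the 10 genes and Nell2 are the 3 most abundant of each list and relatives with a mean FPKM of at least 1. Up to 4 of each list with the largest fold change at an unadjusted p under 0.05 are also named, as are genes that overlap the 10 genes. The endothelial and Y-linked lists are given only as sums. Genes named after their values were seen are marked so. Gene positions are from GENCODE release M21 (GRCm38), promoter sequences from RefSeq on GRCm38.p6. A gene that the naming rule selects is not reported here. Alternatives changed the pseudocount, filter, scaling, variance trend, replicate block, Y-linked covariate and libraries.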

Additional observations from a re-analysis of the deposited data

How the results depend on the processing

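The number of rows with an adjusted p under 0.05 was 0 in the main setting and in all 11 alternatives of pseudocount, filter, scaling, trend, replicate block and Y-linked covariate, and 0 to 324 with 1 library left out (324 without cKO replicate 1, 2 without control replicate 3). Of the 10 genes, 0 had an adjusted p under 0.05 in any of the 18 fits. The number at an unadjusted p under 0.05 was 4, and 2 with a pseudocount of 0.1; leaving out single libraries gave 0 to 3. The median log2 fold change of the 10 genes was 0.04, and 0.020 to 0.12 with 1 library left out, the highest without control replicate 3. Acan, Comp, Scx, Sox9, Sox6 and Hapln1 kept their direction in all 17 alternatives. Fold changes near 0 changed sign: Matn2 was -0.029 with the Y-linked covariate. With 1 library left out, Matn2 ran from -0.052 to 0.11 (negative without control replicate 1, control replicate 2 or cKO replicate 1), Sox5 from -0.017 (without control replicate 3) to 0.10, Tnmd from -0.22 to 0.16 (positive without control replicate 3 or cKO replicate 2), and Mkx from -0.29 to 0.054 (without cKO replicate 1). The cause was not tested. Sox5 was not tested where an FPKM of at least 1 was asked of every library.

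Same-numbered libraries of the groups deviated together with correlations of 0.03, -0.17 and 0.21, so the numbers were not taken to pair the libraries. With the replicate block, 4 of the 10 genes had an unadjusted p under 0.05, but Sox9 (0.0455 in limma) took the place of Scx (0.0607), and the chondrocyte regulators 5 in place of 2. Across the 11 alternatives with all libraries the list counts ran from 2 to 3 for cartilage matrix, 1 to 5 for chondrocyte regulators, 6 to 9 for tendon genes, 1 to 3 for sugar chain synthesis, 2 to 5 for hyaluronan and aggrecan turnover and 1 to 4 for relatives. The size of 3 libraries a group and the unknown depth limit all of these values.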
